A study of Mus musculus with 2 samples.

Results

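The transcripts that build the receptor for calcitonin gene-related peptide (CGRP) were followed through single cells sorted from mouse tumours. They are 3 of the 15416 genes in the deposited matrix, namely Ramp1, Ramp3 and Calcrl. They were picked by name with their levels over cell classes already known, Ramp3 for dendritic and Ramp1 for lymphoid cells. Levels over cell classes are therefore a description here, with no test. The cells were CD45+JAML+, that is leukocytes bearing JAML, an adhesion and costimulatory receptor, from tumours of 3 mice. The hashtag names read B16F10, a melanoma line, with an isotype control, and the labels used here give no strain, age or genotype. All mice form 1 group, so classes of cells were compared within mice. One 10x 5' v2 gene expression library held the cells of all 3 mice, so no barcode is shared between libraries.

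The matrix had 5976 cells and 103155608 UMIs (unique molecular identifiers), with 2953 to 49843 UMIs per cell and a median of 14439. Hashtags gave 2445 cells to mouse 1, 1184 to mouse 2 and 2339 to mouse 3, and 8 cells had none. The labels call the cells T cells and in one place TREG, but the clusters carrying T-cell markers, which the authors named after Cd3g and Pdcd1, held 46.9% of them. The rest lay in clusters which carried dendritic or macrophage markers, among them those named after Siglech, Ifitm1 and Xcr1. The authors' 16 subclusters were given names ending in "-like" from marker lists. Subclusters 0 and 9 were plasmacytoid dendritic-like, 6 and 11 type 1 dendritic-like, 4 type 2 dendritic-like and 12 mature migratory dendritic-like. Subcluster 2 was macrophage-like, 3 was natural killer or type 1 innate lymphoid-like, and 1, 5, 7, 8, 10, 14 and 15 were CD8 T-like. Subcluster 3 had 6 of 6 natural killer or type 1 innate lymphoid markers at 2-fold over the other cells. It also had 3 of 4 gamma-delta T-cell and 3 of 7 T-cell markers at 2-fold. Of its 632 cells, 159 had UMIs of a Cd8 and a Cd3 gene and none of Cd4, so the name does not cover all its cells. Subcluster 13, part of the Siglech cluster, was led by Apod, Cyp7b1 and Pi16. It had 1 of 7 plasmacytoid and 4 of 7 type 2 dendritic markers at 2-fold over the other cells. Subcluster 4 had 3 of 7 type 2 dendritic markers at 2-fold. The type 2 dendritic markers summed to 2807 CPM in subcluster 13 and 3051 CPM in subcluster 4. With markers of both kinds, subcluster 13 has no name here.

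CGRP is a neuropeptide released by sensory nerve endings. Its receptor is a pair of proteins, the G protein-coupled receptor encoded by Calcrl and the single-pass partner encoded by Ramp1, which escorts it to the cell surface and shapes the binding site. Partnered with the product of Ramp2 or Ramp3, the same Calcrl protein binds adrenomedullin, a vasodilator peptide, and both receptor forms act mainly through Gs and cyclic AMP. In dendritic cells and lymphocytes CGRP is known to change cytokine release, mostly towards less inflammation. Protein levels were not analysed here.

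In GRCm38 with GENCODE vM21, all 3 are protein-coding genes. Ramp1 lies on chromosome 1 from 91179822 to 91225196 on the plus strand, Ramp3 on chromosome 11 from 6658521 to 6677475 on the plus strand, and Calcrl on chromosome 2 from 84330626 to 84425411 on the minus strand. The 250 bases before each RefSeq start (GRCm38.p6) are shown because the genes were detected in different cell classes, and their promoters also differ in base composition. The windows are chr1:91179572-91179821, chr11:6658283-6658532 and chr2:84425267-84425516, each printed 5′ to 3′ on the strand of its gene. The RefSeq starts of Calcrl and Ramp3 lie inside the genes as GENCODE places them. The Calcrl window therefore covers bases of the GENCODE gene, from 84425267 to 84425411. The last bases of the Ramp3 window, from 6658521 to 6658532, do so too. Capitals mark matches to the searched motifs.
Ramp1: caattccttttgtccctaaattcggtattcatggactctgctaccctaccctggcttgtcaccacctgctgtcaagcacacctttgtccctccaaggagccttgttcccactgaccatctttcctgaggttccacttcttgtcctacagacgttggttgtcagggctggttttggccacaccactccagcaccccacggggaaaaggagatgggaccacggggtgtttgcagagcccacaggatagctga
Ramp3: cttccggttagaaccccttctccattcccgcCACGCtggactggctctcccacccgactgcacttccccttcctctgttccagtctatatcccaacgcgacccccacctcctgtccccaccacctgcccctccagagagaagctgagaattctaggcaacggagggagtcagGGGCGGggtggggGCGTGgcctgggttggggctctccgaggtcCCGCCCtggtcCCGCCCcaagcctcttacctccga
Calcrl: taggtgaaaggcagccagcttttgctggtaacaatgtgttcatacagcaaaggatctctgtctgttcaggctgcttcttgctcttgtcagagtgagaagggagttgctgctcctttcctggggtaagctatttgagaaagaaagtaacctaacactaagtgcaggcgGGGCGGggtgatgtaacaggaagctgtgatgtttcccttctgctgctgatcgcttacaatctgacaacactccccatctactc

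Both strands were searched for the cAMP response element TGACGTCA (in 1.55% of all promoter windows of this length), its core TGACG (17.8%), the AP-1 motif TGANTCA (6.75%), ACGTG (16.6%), GCGTG (28.2%) and the GC box GGGCGG (32.7%). Ramp3 held GCGTG at 2 places and the GC box at 3, Calcrl held 1 GC box, and the Ramp1 window held none of the searched motifs. The matches do not overlap. The GC content was 65.2% for Ramp3, 54% for Ramp1 and 48.4% for Calcrl, against a median of 52.4% over 32851 promoters.

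Ramp1 was the most abundant member, with 8291 UMIs in 2772 cells (46.4%). Its highest levels were in the Siglech cluster of plasmacytoid dendritic-like cells and not in lymphoid cells, although it had been picked for the lymphoid ones. Levels are CPM, the gene's UMIs summed over the cells of a class in a mouse and scaled to the same total for every class and mouse. In subcluster 0 Ramp1 reached 266, 288 and 244 CPM in mice 1, 2 and 3. In subcluster 9 it reached 291, 212 and 243 CPM. In the unnamed subcluster 13 it was 239, 182 and 209 CPM. The range over mice of subcluster 9 overlapped those of subclusters 0 and 13, while subcluster 0 lay above subcluster 13. All 3 lay above every other subcluster. The Siglech cluster held 57.0% of all Ramp1 UMIs in 22.0% of the cells.

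Below them came subcluster 3, natural killer or type 1 innate lymphoid-like but also carrying T-cell markers, with 71.9, 98.2 and 72.3 CPM. The dividing type 1 dendritic-like subcluster 11 followed with 71.1, 64.0 and 63.8 CPM. Of the 129 cells of subcluster 11, 82 lay in the authors' Xcr1 cluster, and its type 1 and type 2 dendritic markers summed to 710 and 638 CPM. The ranges of subclusters 3 and 11 stood apart by less than 1 CPM, and subcluster 11 also stood above the next in order. Type 1 dendritic-like subcluster 6 had 54.1, 61.4 and 55.3 CPM, macrophage-like subcluster 2 had 63.4, 47.3 and 42.3 CPM, and type 2 dendritic-like subcluster 4 had 58.1, 44.6 and 40.4 CPM. From subcluster 6 downwards no neighbours in the order differed beyond the spread of the mice. Of the 15 neighbouring pairs in the whole order, 12 overlapped.

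Among CD8 T-like cells Ramp1 was mostly low and uneven between mice. Subcluster 7 had 70.0, 5.35 and 7.44 CPM, so 1 mouse set its mean. The largest, subcluster 1, had 13.5, 25.8 and 6.24 CPM, and 3 of its 22 cells with a UMI held 57.1% of its Ramp1 UMIs. Subcluster 5 had 21.3, 37.2 and 11.5 CPM and dividing subcluster 8 had 19.6, 51.3 and 25 CPM, mouse 2 being the highest in both. Subcluster 10, whose leading genes include Dapl1 and the stem-like T-cell factor Tcf7, had 38.2, 28.4 and 28.7 CPM. Subcluster 15 had 89.6 and 5.93 CPM in mice 2 and 3, and 3 of its 6 cells with a UMI held 83.3% of its 18 UMIs. Dividing subcluster 14 had 7.81 and 6.49 CPM in mice 1 and 3. In each of them the remaining mouse had under 10 cells. The T-cell clusters together held 14.9% of the Ramp1 UMIs.

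**Figure D1:**
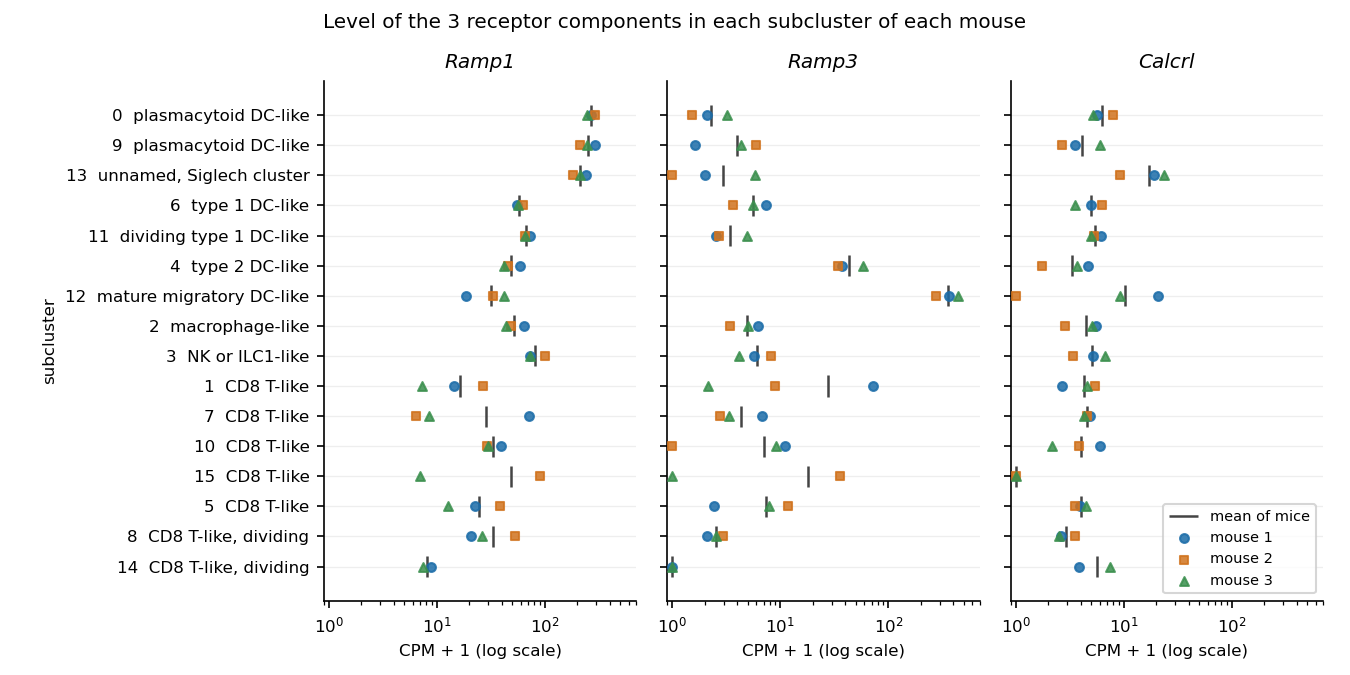
Levels of Ramp1, Ramp3 and Calcrl in the 16 subclusters, as CPM plus 1 on a log axis, with 1 symbol per mouse and a tick at the mean of the mice with at least 10 cells. Ramp1 is highest in subclusters 0, 9 and 13, Ramp3 in subcluster 12, and Calcrl is low in every class, with its highest mean in subcluster 13.

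Shares of cells with a UMI were also highest in subclusters 0, 9 and 13 after cells were thinned to 7537 UMIs. This left 5378 cells and dropped 598 below that depth. Thinned, Ramp1 was present in 79.1% of subcluster 0 cells (exact Clopper-Pearson 95% interval 76.4 to 81.7%), and without thinning in 91.2%. In subcluster 9 the thinned share was 80.8%. In subcluster 3 it was present in 31.7% of thinned cells (27.4 to 36.2%) and in 40.2% without thinning. Subclusters 11 and 6, lower by CPM, had larger thinned shares of 42.1% (33.3 to 51.2%) and 33.0% (28.2 to 38.0%), with intervals overlapping that of subcluster 3. Without thinning, subclusters 11 (75.2%), 6 (69.6%), 4 (56.9%) and 2 (49.5%) all stood above it. In the other T-cell subclusters together the thinned share was 8.32% (7.09 to 9.70%). As a measure of free RNA, Siglech, which T cells should lack, was present in 4.08% of thinned cells of the T-cell clusters (3.30 to 4.99%) and in 96.6% of those of its own cluster, whose median depths were 10353 and 13486 UMIs. Siglech measured 7.61 CPM in the T-cell clusters and 1968 CPM in the Siglech cluster, while Ramp1 measured 33.0 and 252 CPM. The Ramp1 share in subcluster 1, 1.99% of thinned cells, was below that of Siglech in the T-cell clusters, but 8 of its 22 cells with Ramp1 held 2 or more UMIs and 1 held 26.

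**Figure D2:**
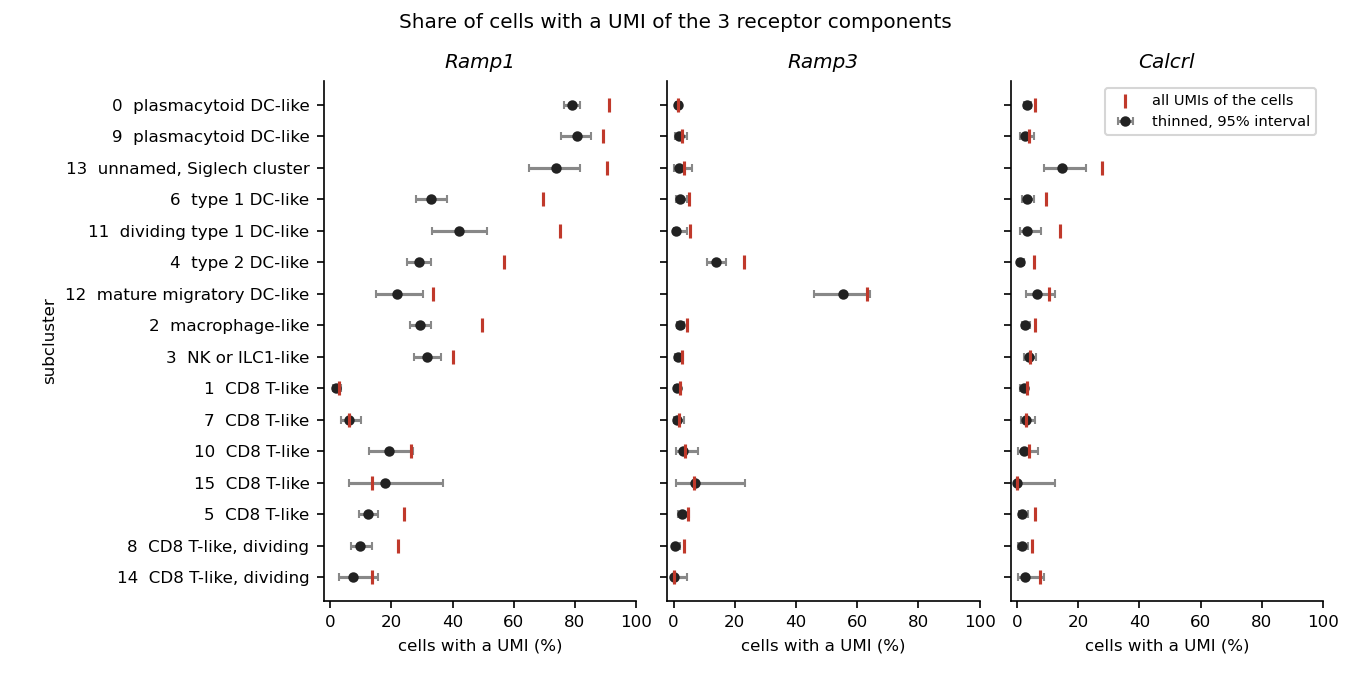
Percent of cells with at least 1 UMI of each gene in the 16 subclusters, with cells thinned to 7537 UMIs (black points, exact 95% intervals) and without thinning (red ticks). The highest values are 80.8% of thinned cells for Ramp1 in subcluster 9 and 55.3% for Ramp3 in subcluster 12, and Calcrl exceeds 10% of thinned cells only in subcluster 13.

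Ramp3, the partner that turns the receptor towards adrenomedullin, was concentrated in a small class. Mature migratory dendritic-like subcluster 12, with 125 cells (2.09% of all), held 51.6% of its 1767 UMIs. There Ramp3 measured 365, 275 and 438 CPM, and 63.2% of cells had a UMI, with a median of 9 UMIs and at most 40 in those cells. Type 2 dendritic-like subcluster 4 had 36.5, 32.9 and 57.1 CPM and held another 30.2% of the UMIs, with a UMI in 22.9% of cells. Every mouse of subcluster 12 lay above every mouse of the other subclusters. Subcluster 1 had 70.8, 8.02 and 1.14 CPM, so its mean of 26.6 CPM rested on mouse 1. Without mouse 3, subcluster 1 (39.4 CPM) ranked above subcluster 4 (34.7 CPM), and in interferon-led subcluster 15 the values were 34.5 CPM in mouse 2 and 0 in mouse 3.

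Elsewhere Ramp3 measured 6.4 CPM or less on average. It had a UMI in 1.61% of thinned cells of the Siglech cluster (1.00 to 2.46%) and in 1.64% of those of the T-cell clusters (1.16 to 2.26%), which are like shares. Of the cells with Ramp3, 4 of 27 in the Siglech cluster and 27 of 80 in the T-cell clusters held 2 or more UMIs, with at most 3 and 13 in a cell. Subcluster 14 had 0 of 80 cells with a UMI, which allows a share of such cells of up to 3.75%, taking 3 cells as the limit of a count of 0. Intervals and such limits cover counting error only.

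Calcrl, the receptor itself, was sparse in every class. It had 402 UMIs in 355 cells (5.94%), and 319 of these cells had exactly 1 UMI. Its highest level was in subcluster 13, with 18.1, 8.28 and 22.4 CPM, and there 14.8% of thinned cells had a UMI (8.85 to 22.6%). Plasmacytoid dendritic-like subcluster 0 had 4.70, 6.88 and 4.24 CPM, and 3.24% of its thinned cells had a UMI (2.20 to 4.60%). Subcluster 12 had 19.8, 0 and 8.24 CPM, a range that overlaps those of most classes. Of the 15 neighbouring pairs in its order, 14 overlapped and the last stood apart. Subcluster 15 had 0 of 44 cells with a UMI, which allows a share of such cells of up to 6.82% by the same limit of 3 cells.

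The receptor and its partner met in few cells. Ramp1 and Calcrl had UMIs together in 200 cells, where the product of their shares over all cells gives 164.7. Within the Siglech cluster the count was 92 cells against 89.8 from the product of shares, and within the T-cell clusters 23 against 22.2. In subcluster 13, 29 of the 32 cells with Calcrl also had Ramp1 (90.6%), and the product of shares there gives 28.9. Most of these cells held 1 Calcrl UMI, which limits what such counts can show. Ramp3 and Calcrl met in 23 cells, 9 of them in subcluster 12, with 6, 0 and 3 cells in the mice. Ramp1 and Ramp3 met in 81 cells of the Ifitm1 cluster, which holds subclusters 4 and 12, where the product of shares gives 108.9. All 3 had UMIs in 11 cells.

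Of the ligands, few transcripts came from these cells. Calca, which encodes CGRP and calcitonin from 1 gene, had 57 UMIs in 34 cells, of which 29 lay in the Pdcd1 cluster of T cells, at 2.46, 3.61 and 0.946 CPM. Calcb, which encodes the second CGRP, had 56 UMIs in 30 cells. The 2 genes are related paralogs whose reads could be split, so their separate counts are uncertain. Adm, encoding adrenomedullin, had 187 UMIs in 61 cells, with 14.6, 42.4 and 9.27 CPM in subcluster 12 and 7.65, 7.52 and 5.32 CPM in macrophage-like subcluster 2. Adm2, another ligand of the family, had 11 UMIs. Ramp2, the remaining partner, had 25 UMIs in 25 cells. Crcp, whose product was described as a CGRP receptor component and is also an RNA polymerase III subunit, was broad, with 3274 UMIs in 2314 cells.

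Genes that carry the signal onwards were spread over the classes. Gnas, the Gs alpha subunit, measured 1658 ± 61.8 CPM in the Siglech cluster (SD, n = 3 mice) and between 538 and 895 CPM in the other clusters. Adcy6, an adenylyl cyclase, measured 14.8 ± 4.75 CPM in the Ifitm1 cluster and at most 2.99 CPM elsewhere. Adcy7, the cyclase best known from blood cells, measured 34.8 to 82.8 CPM in all clusters. Among other receptors that raise cyclic AMP, the prostaglandin receptor gene Ptger4 measured 71.7 CPM in the Ifitm1 cluster. The adenosine receptor gene Adora2b measured 26.8 CPM in the Ifitm1 cluster, and Adora2a 30.8 CPM in the Cd3g and 30.7 CPM in the Pdcd1 cluster.

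The genes whose levels ran most like each member were taken over the 16 subclusters from 6775 genes, by Pearson's r of log2(CPM + 1) of the mean over mice. For Ramp1 they were Sil1 (r = 0.93), Man1c1 (0.93), Creb3 (0.91), Adpgk (0.91), Ankle2 (0.89) and Dnajc17 (0.88). For Ramp3 they were Zmynd15 (0.86), Ppp1r15a (0.84), Stxbp3 (0.83), Wnk1 (0.83), Ccl22 (0.81) and Ssh1 (0.81). For Calcrl they were Mbtd1 (0.84), Hsdl1 (0.83), Mink1 (0.82), Rxrb (0.82), Snap29 (0.81) and Filip1l (0.80). The points are subclusters of 1 library that differ in depth, and this is a description with no p.

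T cells of the CD8 lineage were also set against those of the CD4 lineage, a contrast other than the one over cell classes. It draws on the same cells and UMIs by which the genes were picked and had been run on them in earlier work. Its p-values are therefore not independent of the choice. A CD8-gate cell had UMIs of Cd8a or Cd8b1 and of a Cd3 gene and none of Cd4, and a CD4-gate cell had UMIs of Cd4 and of a Cd3 gene and none of Cd8a or Cd8b1. Within the T-cell clusters these were 2148 and 59 cells. Ramp1 and Ramp3 were both lower in the CD8 gate. Of 9495 genes tested with edgeR's quasi-likelihood test, with the mouse as a block and Benjamini-Hochberg adjustment, 54 were higher and 51 lower in the CD8 gate (0.569% and 0.537%, 1.11% in all). Of the 3 members, 2 were among the lower ones.

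Ramp1 measured 17.2, 34.0 and 9.37 CPM in CD8-gate cells of mice 1, 2 and 3, against 216, 246 and 97.8 CPM in CD4-gate cells. All 3 CD4-gate values lay above all 3 CD8-gate values. The log2 fold change, CD8 over CD4, was -3.14 ± 0.28 (SE; adjusted p = 1.17e-05 by edgeR). The counts behind it were 579 UMIs in 280 of 2148 CD8-gate cells (13%) and 103 UMIs in 14 of 59 CD4-gate cells (23.7%). In mouse 2 the 36 CD4-gate UMIs came from 2 cells. Over all alternatives the value lay between -3.36 and -2.75, each past the threshold.

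The gates also differed in depth and in markers of other cells. CD8-gate cells had a median of 11024 UMIs and CD4-gate cells 6491. The 7 plasmacytoid dendritic markers summed to 213, 290 and 350 CPM in the CD8 gate and to 1218, 369 and 287 CPM in the CD4 gate, so they stood higher in CD4-gate cells of mouse 1. By edgeR 0 of the 7 passed, with 4 at an unadjusted p under 0.05, and 0 passed with DESeq2. Without mouse 2, 5 of the 7 were lower in the CD8 gate, without mouse 3 1, and with no filter on low counts 3. Their median log2 fold change was -2.15, against 0.10 over all genes, while it was 0.31 without mouse 1 and -2.63 without mouse 2. Markers of type 2 innate lymphoid cells summed to 40.0, 43.3 and 45.7 CPM in the CD8 gate and 132, 301 and 141 CPM in the CD4 gate, lower in every mouse, and Gata3, the 1 of these tested, passed (-1.22 ± 0.28). Monocyte markers summed to 1350, 1653 and 2946 CPM in the CD8 gate and 1269, 301 and 568 CPM in the CD4 gate, higher in every mouse, and 1 of 3 tested passed, Plac8 (1.96 ± 0.31). The part of these markers in the members' differences was not tested. Of the 14 CD4-gate cells with Ramp1, 4 had Siglech UMIs. These 14 cells had a median of 15813.5 UMIs, against 6231 UMIs in the 45 CD4-gate cells without Ramp1. In the CD8 gate the medians were 18874 UMIs with Ramp1 and 10384 UMIs without. The 14 cells held 40 Siglech UMIs, 27 of the natural killer marker Ncr1 in 3 cells and 25 of plasmacytoid marker Klk1 in 1 cell. The 45 cells held 3 Siglech, 8 Ncr1 and 1 Klk1 UMIs. With every cell holding a Siglech UMI removed from both gates, Ramp1 measured 17.4, 34.0 and 8.73 CPM in CD8-gate cells and 219, 81.3 and 101 CPM in CD4-gate cells. That fold change was -2.75 (adjusted p = 3.27e-04 by edgeR), with groups that again did not overlap. In mouse 2 the CD4-gate value then rested on the 10 UMIs of 1 cell. Without subcluster 3 it was -3.36 (adjusted p = 6.25e-05).

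Ramp3 measured 2.55, 5.88 and 1.91 CPM in CD8-gate cells, against 67.9, 47.9 and 18.3 CPM in CD4-gate cells. The groups did not overlap. The log2 fold change was -3.63 ± 0.64 (adjusted p = 0.00681 by edgeR), from 97 UMIs in 47 CD8-gate cells and 26 UMIs in 10 CD4-gate cells. Without mouse 1 it was -2.93 with an adjusted p of 0.0995, and without the mouse block -3.69 with an adjusted p of 0.0551, both by edgeR. Calcrl measured 2.55, 2.78 and 3.21 CPM in CD8-gate cells and 0, 6.84 and 6.11 CPM in CD4-gate cells. Its CD4-gate values rest on 2 UMIs, and the fold change of -0.24 ± 1.26 did not pass the test (adjusted p = 0.982 by edgeR).

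**Figure D3:**
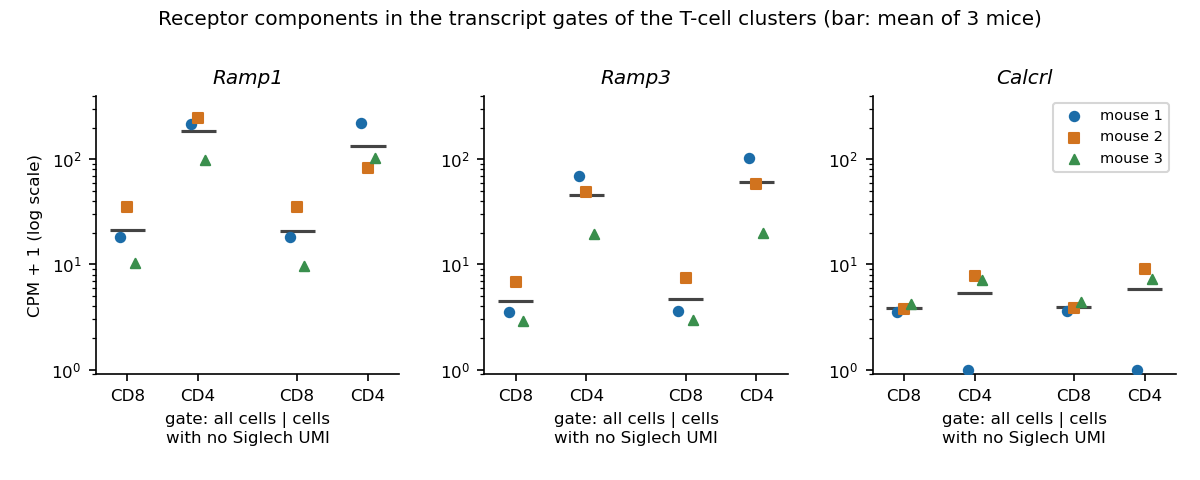
CPM plus 1, on a log axis, of Ramp1, Ramp3 and Calcrl in CD8-gate (left) and CD4-gate (right) cells of the T-cell clusters, for all cells and for cells with no Siglech UMI, with 1 symbol per mouse and a bar at the mean of 3 mice. For Ramp1 and Ramp3 every CD4-gate mouse lies above every CD8-gate mouse in both sets, and Calcrl overlaps.

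Around them, checkpoint genes were higher in the CD8 gate, 5 of the 8 tested, with a median log2 fold change of 2.07. With DESeq2 3 passed, and without the mouse block 0, with 4 at an unadjusted p under 0.05. Pdcd1, encoding the inhibitory receptor PD-1, measured 273, 221 and 108 CPM in CD8-gate cells and 84.9, 61.5 and 36.7 CPM in CD4-gate cells (log2 fold change 1.86 ± 0.26, adjusted p = 9.12e-04 by edgeR). Of 10 cAMP-responsive genes, 1 was higher, the nuclear receptor gene Nr4a2 at 2.07 ± 0.33, and the list's median was -0.22. Of 16 Gs and cAMP signalling genes tested, 0 passed by edgeR, with 1 at an unadjusted p under 0.05, and 0 passed with DESeq2. Their median was 0.08. Among the largest differences, Ccr10, a chemokine receptor gene, measured 0.392, 1.80 and 1.74 CPM in CD8-gate cells and 80.6, 47.9 and 18.3 CPM in CD4-gate cells (-5.23 ± 0.81). Trat1, encoding an adaptor that stabilises the T-cell receptor, stood at -4.37 ± 0.38, and Lmna, encoding the nuclear lamina protein lamin A/C, at -3.44 ± 0.48. On the other side Ccl3, encoding a chemokine of activated CD8 T cells, measured 983, 839 and 249 CPM in CD8-gate cells and 59.4, 20.5 and 24.4 CPM in CD4-gate cells (4.38 ± 0.31).

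To see what else marked cells with Ramp3, cells of the Ifitm1 cluster with at least 1 Ramp3 UMI were set against cells with none, matched within each subcluster, depth class and mouse. This left 75, 36 and 53 cells per class in mice 1, 2 and 3, most from subcluster 4 (120) and subcluster 12 (40). The median depth was 24215, 25207.5 and 23021 UMIs with Ramp3 and 24334, 24934 and 23044 UMIs without. Cells with Ramp3 had more of the dendritic maturation gene Ccr7, of the cyclic AMP-induced repressor gene Crem, and of Egln3, Mt2, Hilpda and Vegfa. Of 7492 genes, 300 were higher (4%) and 63 lower (0.841%) in cells with Ramp3, 4.85% in all, by edgeR with the mouse as a block. Ramp3 itself defined the classes and was left out. The class boundary is 1 UMI, and a cell without one may still express the gene.

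Egln3, a prolyl hydroxylase gene of the oxygen-sensing pathway, measured 14.2, 35.5 and 51.8 CPM with Ramp3 and 3.28, 4.38 and 3.34 CPM without (log2 fold change 3.18 ± 0.37, adjusted p = 5.62e-04 by edgeR). Hilpda, encoding a lipid droplet protein, measured 151, 171 and 442 CPM with Ramp3 and 54.7, 16.4 and 36.8 CPM without (2.75 ± 0.32, adjusted p = 6.32e-04 by edgeR). Vegfa, an angiogenic growth factor gene, measured 30.5, 55.4 and 90.9 CPM with Ramp3 and 7.10, 0 and 21.7 CPM without (2.66 ± 0.38, adjusted p = 0.00203 by edgeR). No class with Ramp3 overlapped the class without in these genes. For Vegfa the call was lost with DESeq2 (adjusted p = 0.188) and without the mouse block (0.0645 by edgeR). The related growth factor gene Pgf stood at 2.39 ± 0.30 and the metallothionein gene Mt2 at 2.83 ± 0.36. Il1r2, encoding a decoy receptor for interleukin 1, measured 524, 490 and 838 CPM with Ramp3 and 140, 110 and 228 CPM without (2.10 ± 0.10, adjusted p = 8.93e-07 by edgeR). Its difference was 2.51 in subcluster 4 alone and 0.58 in subcluster 12 alone, where it did not pass (adjusted p = 0.69 by edgeR). Plet1, encoding a surface protein, completed the 8 largest at 2.14 ± 0.19.

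Of the 10 cAMP-responsive genes, 4 rose with Ramp3, and their list had a median log2 fold change of 0.52, against -0.01 over all genes. With DESeq2 4 also passed, and without the mouse block 2, Crem and Nr4a2. Crem measured 59.5, 51.0 and 79.0 CPM with Ramp3 and 17.5, 7.67 and 17.6 CPM without (2.21 ± 0.21, adjusted p = 1.31e-04 by edgeR). In subcluster 4 alone 4 of the 10 cAMP-responsive genes passed. In subcluster 12 alone 0 of the 7 tested passed by edgeR, with 4 at an unadjusted p under 0.05. Crem had an adjusted p of 0.0657 by edgeR in subcluster 12 alone. Nr4a2, encoding an orphan nuclear receptor, measured 80.0, 92.0 and 121 CPM with Ramp3 and 42.6, 55.9 and 40.1 CPM without (1.21 ± 0.18, adjusted p = 0.00231 by edgeR). Its relative Nr4a3 rose by 1.08 ± 0.24 and Junb, an AP-1 subunit gene, by 0.49 ± 0.09. Without mouse 3 Nr4a3 stood at 0.62 (adjusted p = 0.0554 by edgeR). Of 15 Gs and cAMP signalling genes tested, 1 rose (in subcluster 12 alone 0 of 6). It was Pde4b, a phosphodiesterase that degrades cyclic AMP, with 72.7, 95.4 and 130 CPM with Ramp3 and 30.6, 62.4 and 71.0 CPM without (1.05 ± 0.15, adjusted p = 0.00193 by edgeR, and 0.139 without the mouse block). Ramp1 measured 50.5, 32.2 and 26.3 CPM with Ramp3 and 55.2, 47.1 and 56.8 CPM without. It was lower in all 3 mice but did not pass the test (-0.39 ± 0.19, adjusted p = 0.32 by edgeR).

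The degree of maturation moved with Ramp3 despite the matching. The 8 mature migratory dendritic markers summed to 1784, 1656 and 1535 CPM with Ramp3 and 1105, 969 and 1196 CPM without, and 2 of 8 passed. Ccr7, the receptor that guides dendritic cells to lymph nodes, measured 574, 483 and 570 CPM with Ramp3 and 225, 184 and 243 CPM without (1.46). Fscn1, encoding an actin-bundling protein of mature dendritic cells, stood at 1.17 ± 0.23 and did not pass with DESeq2 (adjusted p = 0.18). In subcluster 4 alone the Ccr7 difference was 3.80 and that of Nr4a3 3.01. The 7 macrophage markers summed to 208, 233 and 131 CPM with Ramp3 and 193, 92.0 and 178 CPM without. Of the 7, 0 passed by edgeR, with 3 at an unadjusted p under 0.05, and 0 with DESeq2. The 5 monocyte markers summed to 1232, 1354 and 937 CPM with Ramp3 and 1599, 1697 and 1481 CPM without, lower in every mouse, and 1 of 3 tested fell, Ly6c2. Among the T-cell markers 1 of 7 rose, Trbc1 at 1.26 ± 0.28 (0.67 without mouse 1, adjusted p = 0.268 by edgeR), with the list's sum at 324, 386 and 149 CPM with Ramp3 and 191, 454 and 163 CPM without. The part of these markers in the other differences was not tested.

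On the lower side, Ly6c2, a surface antigen gene of monocytes, measured 56.3, 90.9 and 54.4 CPM with Ramp3 and 161, 252 and 104 CPM without (-1.21 ± 0.15, adjusted p = 8.12e-04 by edgeR). Mcm3, encoding a subunit of the replication helicase, measured 16.8, 43.2 and 11.9 CPM with Ramp3 and 37.7, 101 and 47.6 CPM without (-1.25 ± 0.20). Without the mouse block their adjusted p was 0.0597 for Ly6c2 and 0.205 for Mcm3, by edgeR. The others of the 8 largest were Ppp1r14a, Fam111a, Serpina3g, Ly6i, Hps3 and Dkc1, between -1.21 and -0.95.

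**Figure D4:**
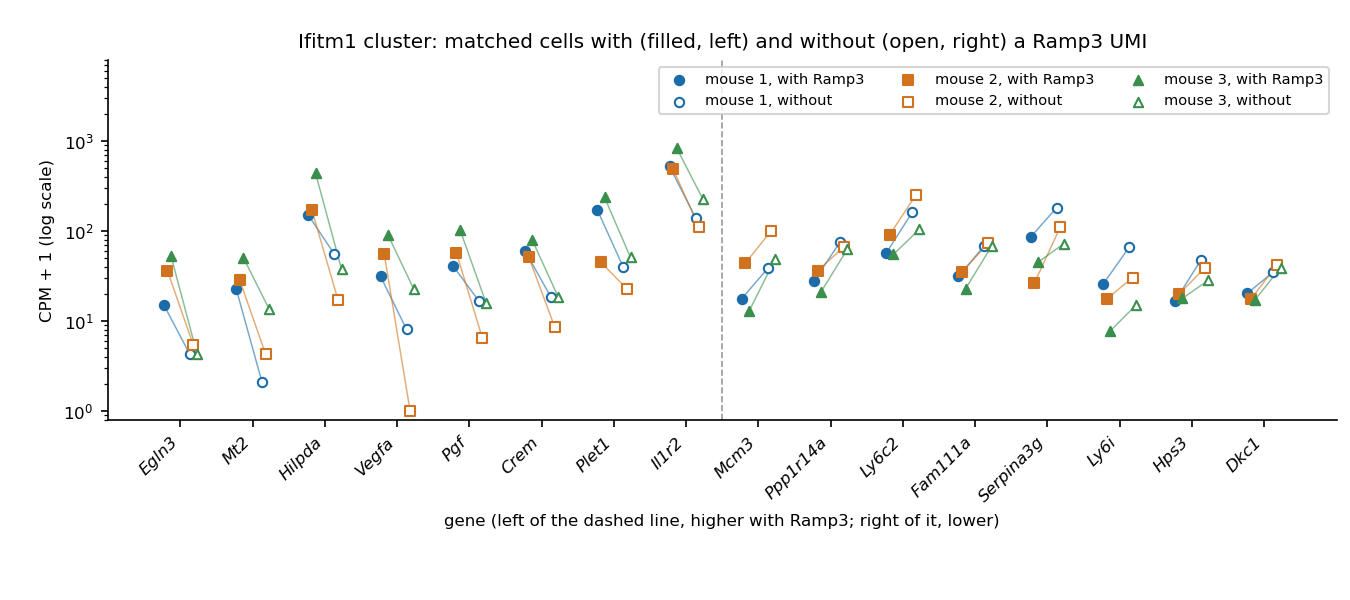
CPM plus 1 of the 16 named genes in Ifitm1-cluster cells with a Ramp3 UMI (filled, left) and matched cells without (open, right), on a log axis, with lines joining the classes of each of 3 mice. Every line for the 8 genes from Egln3 to Il1r2 falls from left to right, and every line for the 8 genes with less transcript in Ramp3 cells rises.

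The same comparison for Ramp1 in the T-cell clusters used 240, 115 and 136 cells per class in mice 1, 2 and 3. Of the cells in each class, 220 came from subcluster 3, natural killer or type 1 innate lymphoid-like. Another 108 came from subcluster 5 and 72 from subcluster 8, so the differences are not those of T cells alone. Of 9050 genes, 72 were higher (0.796%) and 18 lower (0.199%) in cells with Ramp1, 0.994% in all, by edgeR with the mouse as a block. Without the block 0 passed, with 257 at an unadjusted p under 0.05, and with DESeq2 7 passed. Leaving out mouse 1 left 30 genes, and a second matching draw 17. Without subcluster 3, 59 genes passed, 34 of them also in the full comparison. Cells with Ramp1 had less Ccl5, a chemokine gene of effector T and natural killer cells, at 2646, 1781 and 3291 CPM, against 3614, 3247 and 5690 CPM without Ramp1 (-0.71 ± 0.06, adjusted p = 1.9e-05 by edgeR). Gzmk, a granzyme gene of effector-memory T cells, measured 29.6, 15.5 and 26.3 CPM with Ramp1 and 59.0, 32.2 and 72.8 CPM without (-1.15 ± 0.13, adjusted p = 3.66e-04 by edgeR). Gzma, another granzyme gene, stood at -0.83 ± 0.13. Dapl1, a gene of less differentiated CD8 T cells, measured 70.0, 43.3 and 146 CPM with Ramp1 and 20.9, 7.83 and 53.4 CPM without (1.70 ± 0.14, adjusted p = 1.04e-05 by edgeR). Of the cAMP-responsive genes 2 of 10 rose, Fos at 0.37 ± 0.08 and Dusp1 at 0.36 ± 0.07, with a list median of 0.15. With conflicting cells removed 0 of these 10 passed, with 1 at an unadjusted p under 0.05. Also 0 passed in a second matching draw, for at least 2 UMIs and with cells not matched. The same held without the mouse block and in the Pdcd1 cluster alone. With DESeq2, without subcluster 3 and with any 1 mouse left out 1 passed, and 2 passed with RLE or no filter. Of 16 Gs and cAMP signalling genes 0 passed by edgeR, with 0 at an unadjusted p under 0.05, and 0 with DESeq2. Of 8 checkpoint genes 0 passed, with 1 at an unadjusted p under 0.05, and 0 with DESeq2.

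Some markers of other cells were higher in the cells with Ramp1. So were some natural killer and gamma-delta markers, kinds that subcluster 3 itself carried. All 3 macrophage markers tested rose, C1qa at 2.12, C1qb at 2.28 and Apoe at 1.65 (0.78 without mouse 1), and the list of 7 summed to 115, 32.8 and 69.3 CPM with Ramp1 and 24.6, 14.7 and 20.6 CPM without. Of 6 plasmacytoid dendritic markers tested 2 rose, Siglech at 1.44 and Cox6a2 at 1.38, and without mouse 1 Siglech stood at 0.36 (adjusted p = 0.967 by edgeR). The 7 plasmacytoid markers summed to 351, 245 and 230 CPM with Ramp1 and 222, 261 and 252 CPM without. The type 2 dendritic markers summed to 325, 219 and 348 CPM with Ramp1 and 156, 157 and 299 CPM without, and 2 of 5 tested rose, Mgl2 by 1.74 ± 0.33 and Cd7 by 0.60 ± 0.13. Of the natural killer or type 1 innate lymphoid markers 1 of 6 rose, Ncr1 by 1.07 ± 0.18, higher in 2 of 3 mice. Of the gamma-delta T-cell markers 3 of 4 rose, Tcrg-C1 by 1.25 ± 0.20, Tcrg-C4 by 0.77 ± 0.17 and Trdc by 0.48 ± 0.09, and 1 of the 4 passed without mouse 1. With DESeq2 0 of 3 macrophage, 0 of 6 plasmacytoid and 0 of 4 gamma-delta markers passed, and the same held without the mouse block. In a second matching draw 1 of 2 macrophage, 0 of 6 plasmacytoid and 2 of 4 gamma-delta markers passed. With conflicting cells removed 0 of 2 plasmacytoid and 0 of 4 gamma-delta markers passed. Among the 8 largest higher genes were the myeloid genes Lyz2 and Ccl2 and the class II helper gene H2-DMb1. When cells with UMIs of conflicting lineages were removed, 20 genes passed, 14 of them also in the full comparison, and Ccl2 changed direction. The part of these cells in the remaining differences was not tested.

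For Calcrl the classes were taken in the Siglech cluster, a comparison added after the levels had been seen, with 45, 18 and 34 cells per class in mice 1, 2 and 3. Of 5886 genes, 2 passed (0.034%), 1 higher and 1 lower in cells with Calcrl (0.017% each). Slfn5, an interferon-induced gene of the Schlafen family, measured 294, 312 and 210 CPM with Calcrl and 131, 155 and 86.7 CPM without (1.16 ± 0.14, adjusted p = 0.0182 by edgeR). Ifitm1, an interferon-induced membrane protein gene, measured 66.9, 151 and 175 CPM with Calcrl and 400.2, 212 and 855 CPM without (-1.99 ± 0.28, adjusted p = 0.0423 by edgeR). Neither passed with DESeq2, without the mouse block or without mouse 1. Of the matched cells per class, 56 came from subcluster 0, 11 from subcluster 9 and 30 from the unnamed subcluster 13. In subclusters 0 and 9 alone 15 genes passed, and neither Slfn5 nor Ifitm1 was among them. Ramp1, the partner gene, measured 307, 301 and 186 CPM with Calcrl and 232, 295 and 243 CPM without. The classes overlapped, and the difference of 0.05 ± 0.15 did not pass (adjusted p = 1.00 by edgeR).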

How the data were processed

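UMI counts per gene and cell, with no normalization, and the annotation (percent mitochondrial UMIs, hashtag, clusters) were used as deposited by the authors. Cell Ranger 3.1.0, Seurat 3.1.5 and mm10 are given per the submitters' processing notes. The deposited percent of mitochondrial UMIs was not used in a test. The members, lists and comparisons were chosen with earlier results of these data known.

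Counts were summed per mouse and class in Python 3.11.15. Levels per subcluster needed at least 10 cells of the mouse, while the tests had no such minimum. In mouse 2, Ramp3 in subcluster 12 alone had 9 cells per class. The CD4 gate with conflicting cells removed also had 9 there. Tests used edgeR 4.0.16 (TMM, filterByExpr, quasi-likelihood) in R 4.3.3, with a threshold of 0.05 on adjusted p. Both classes came from the same mice, so the mouse was a block. Cells with and without a UMI were drawn to equal numbers within subcluster and depth quintile of each mouse. p-values measure the spread between 3 mice. Named genes were the pathway lists, the 8 largest changes per direction past the threshold (at least 30 CPM in the higher class, same direction in every mouse) and the 6 most alike genes; printed ones were picked from these. A subcluster marker needed 25% of cells and 2-fold. No doublet caller was run; removal of cells with at least 2 UMIs of conflicting lineages was an alternative, beside RLE, DESeq2 1.42.0, no filter, no block, each mouse left out, no matching and other cell sets. The edgeR fit was also tested on simulated data with a fixed dispersion and no mouse effect. That test does not cover the choice or matching of cells.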

Additional observations from a re-analysis of the deposited data

How the results depend on the processing

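The number of genes past the threshold depended on the processing in every comparison, and the cause was not tested. For Ramp3, with 363 genes, it was 737 with no filter on low counts, 141 with DESeq2 (132 higher and 9 lower), 122 without the replicate block, 1464 with cells not matched, 35 in subcluster 12 alone and 215 in subcluster 4 alone, and 329 to 494 with 1 mouse left out. For Ramp1, with 90 genes, it was 201 with no filter, 7 with DESeq2 (4 higher and 3 lower), 0 without the replicate block, 24 for at least 2 UMIs, 56 not matched, 20 with conflicting cells removed, 31 in the Pdcd1 cluster alone, 17 with a second matching draw, 59 without subcluster 3, and 30 (without mouse 1) to 145 (without mouse 3) with 1 mouse left out. For the CD8 against the CD4 gate, with 105 genes, it was 249 with no filter, 23 without the replicate block, 162 without Siglech cells, 262 without conflicting cells, and 101 to 316 with 1 mouse left out, 316 being without mouse 2. DESeq2 there called 27 higher and 69 lower, against 54 and 51 with edgeR. For Calcrl, with 2 genes, it was 1 with RLE, 34 with no filter, 0 with DESeq2 (36 at an unadjusted p under 0.05), 0 without the replicate block (263 at an unadjusted p under 0.05), 123 not matched, 12 with conflicting cells removed, 15 in subclusters 0 and 9 alone, and 0 (without mouse 1) to 17 (without mouse 3) with 1 mouse left out. Neither of the 2 genes was among the 15 of subclusters 0 and 9.

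Some single genes changed direction. In the Ramp1 comparison Ccl2 was at -0.19 and Trdc at -0.14 with conflicting cells removed, and in the Pdcd1 cluster alone Ccl2 was at -0.15, H2-DMb1 at -0.16, Fos at -0.057, Mgl2 at -0.33 and Apoe at -0.75. In the Calcrl comparison Ifitm1 was at 0.47 with cells not matched, and Ramp1 at -0.18 (without mouse 1) to 0.25 (without mouse 3) with 1 mouse left out and at -0.065 with conflicting cells removed. Calcrl between the gates was at -0.93 (without mouse 1) to 0.36 (without mouse 2) with 1 mouse left out. The gate at 2 UMIs was not run for Calcrl, since 11 cells of the Siglech cluster held that many. Depth limits Calcrl, since nearly all its cells hold 1 UMI, and the number of cells limits the CD4 gate, which had 59. The restriction to single subclusters, the gates without Siglech, conflicting or subcluster 3 cells and the whole Calcrl comparison were chosen after seeing the data.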
